A study of Mus musculus with 14 samples.

Results

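Open chromatin around 8 neurogenic transcription factor genes, Dlx1, Dlx2, Dlx5, Dlx6, Neurog2, Neurod1, Eomes and Tbr1, was compared over 14 ATAC-seq peak lists from mouse neural stem cells. ATAC-seq uses the Tn5 transposase to cut accessible DNA, and a peak is a stretch where cuts pile up above background. Every deposited peak that overlapped a gene body or lay within 50 kb of it was taken (build mm10, gene positions from RefSeq GRCm38.p6). The windows of Dlx1 and Dlx2 overlap, as do those of Dlx5 and Dlx6, so the 8 genes made 6 loci. They held 172 of the 544014 deposited peaks, and overlapping peaks merged into 35 of the 127850 regions of the whole series. Of the 35 regions, 15 appeared in 1 list and 6 in 10 or more, 17 lay between protein-coding genes, and 10 were at an end (1 kb either side) of one of the 8 genes.

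The cells were neural stem cells grown with EGF and FGF, and the study followed the ZFTA-RELA fusion, the driver of a supratentorial ependymoma, with 2 libraries in each of 7 groups. ZR denotes fusion cells and EV empty-vector cells. Fusion cells in the ZR_GSK343 group received 10 µM GSK343, an inhibitor of the histone methyltransferase EZH2, for 96 h, those in the ZR_dmCitra group received citraconate at 10 mM, and the ZR_DMSO group was their control. Citraconate_50K carried a fusion label with 10 mM citraconate and DMSO_50K an empty-vector label with DMSO, so treatment and cell line cannot be told apart in that pair. Exposure to citraconate was 24 h or 48 h by the protocol, and the labels do not say which library had which. Vehicle labels were uneven: PBS for ZR and, against its title, for ZR_DMSO, while EV replicate 1 carried DMSO and EV replicate 2 PBS. No label says that replicates came from separate cultures, so any spread between them may be technical.

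Dlx1, Dlx2, Dlx5 and Dlx6 are homeodomain factors that specify GABAergic interneurons of the ventral forebrain, and they sit in convergently transcribed pairs that share enhancers. In the dorsal forebrain the proneural basic helix-loop-helix factor Neurog2 commits radial glia to the glutamatergic lineage, Eomes marks the intermediate progenitors, Neurod1 follows as these differentiate, and Tbr1 marks early deep-layer neurons. In stem cells many such genes are held in a repressed, Polycomb-marked state, and their promoters are often rich in CpG.

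Deposited lists held 12554 to 60472 peaks. Near the 8 genes lay 15 and 17 peaks in ZR, 11 and 16 in EV, 6 and 20 in ZR_GSK343, 12 and 17 in ZR_dmCitra, 0 and 1 in ZR_DMSO, 12 and 11 in Citraconate_50K, and 17 and 17 in DMSO_50K. The ZR_DMSO libraries stood apart: their peaks had median widths of 226 and 186 bp, against 260 to 533 bp elsewhere. Per 10000 deposited peaks they held 0 and 0.479 near the 8 genes, against 2.62 to 3.86 in the other 12 libraries. The DMSO_50K libraries, labelled empty vector, carried peaks at Eomes that EV lacked and ZR had, as given below. Of 10 neural stem cell markers, those with a gene-end peak (up to 1 kb from either end) numbered 5 and 5 in ZR, 8 and 9 in EV, 4 and 6 in ZR_GSK343, 6 and 5 in ZR_dmCitra, 2 and 3 in ZR_DMSO, 4 and 3 in Citraconate_50K, and 6 and 5 in DMSO_50K. Markers of other cell types had 1 to 3 of 4 for neurons, 0 or 1 of 3 for astrocytes, 0 to 2 of 4 for the oligodendrocyte lineage, 0 or 1 of 4 for microglia, 0 or 1 of 3 for endothelium and 0 to 2 of 4 for mesenchyme. Pax6, Gfap, Aqp4, Mbp, Csf1r, Cx3cr1, Aif1, Pecam1, Twist1 and Prrx1 had none in any list.

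Promoter sequences from RefSeq (GRCm38.p6) matched 6 of the 8 genes. The 250 bases upstream of the start site are printed for Dlx2 and Neurod1, whose start sites were called lost in ZR, and for Eomes, whose start site peak was wider in ZR. Each is written 5′ to 3′ along the gene's own strand, and capitals mark E-boxes, CANNTG, the element that basic helix-loop-helix factors bind. The Dlx2 stretch is chr2:71546755-71547004 (minus strand), the Neurod1 stretch chr2:79456637-79456886 (minus strand) and the Eomes stretch chr9:118477939-118478188 (plus strand).
Dlx2: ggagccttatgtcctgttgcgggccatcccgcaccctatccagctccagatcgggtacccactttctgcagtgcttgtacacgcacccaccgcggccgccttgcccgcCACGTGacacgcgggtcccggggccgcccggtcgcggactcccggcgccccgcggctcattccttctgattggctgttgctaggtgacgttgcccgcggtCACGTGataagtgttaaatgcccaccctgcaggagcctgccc
Neurod1: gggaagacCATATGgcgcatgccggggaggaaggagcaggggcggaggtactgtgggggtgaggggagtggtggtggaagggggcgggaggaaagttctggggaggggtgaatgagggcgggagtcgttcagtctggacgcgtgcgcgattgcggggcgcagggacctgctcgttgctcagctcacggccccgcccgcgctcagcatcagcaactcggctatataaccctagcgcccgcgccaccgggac
Eomes: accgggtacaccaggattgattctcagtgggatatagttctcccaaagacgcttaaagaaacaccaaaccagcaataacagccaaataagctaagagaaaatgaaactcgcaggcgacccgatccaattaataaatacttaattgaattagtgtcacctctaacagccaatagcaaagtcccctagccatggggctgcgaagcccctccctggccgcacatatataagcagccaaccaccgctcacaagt
Their GC content was 66.4% for Dlx2, 67.6% for Neurod1 and 46.4% for Eomes, with 24, 22 and 8 CpG, against medians of 52.4% and 6 over 32851 promoters. For the others it was 68.0% for Dlx1, 58.0% for Neurog2 and 45.2% for Tbr1. Dlx2 held 2 E-boxes, both CACGTG, Neurod1 held 1, CATATG, and Tbr1 held 1, CAGGTG, and 66.2% of all promoters held at least 1. The homeodomain element TAATTA matched in Tbr1 alone, at 2 places, against 4.84% of all promoters. The T-box element TCACACC (3.33% of all promoters), TATAAA (12.4%), the AP-1 element TGANTCA (6.75%) and the NF-kB consensus (7.25%) did not match in any of the 6. All motifs were searched on both strands, the TAATTA and E-box matches did not overlap, and a match is a description of letters only.

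**Figure D1:**
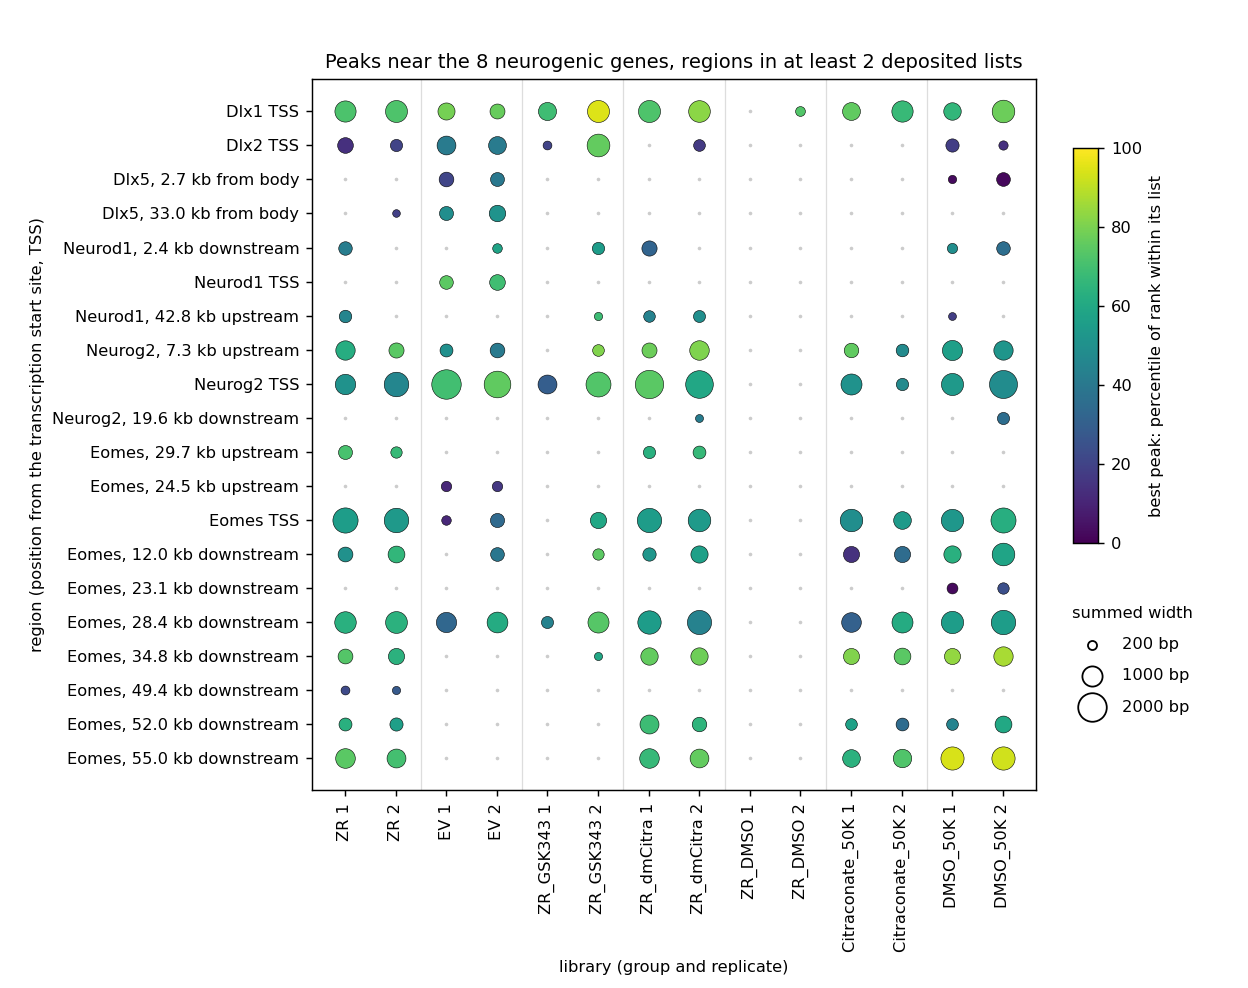
The 20 regions present in at least 2 deposited lists (rows) in each of the 14 libraries (columns). Circle area is the summed peak width in bp, colour is the percentile of the best peak within its own list, and a grey dot marks no peak. The Neurod1 start site row is filled in EV alone, and the Eomes rows at 52.0 and 55.0 kb are filled in ZR, ZR_dmCitra, Citraconate_50K and DMSO_50K but not in EV.

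The start site of Dlx1, an interneuron homeodomain factor, was the most widely shared region (chr2:71529012-71530313), with a peak in 13 of 14 lists. The peak was 1102 and 1179 bp wide in ZR, 717 and 550 bp in EV, 804 and 1184 bp in ZR_GSK343, 1190 and 1150 bp in ZR_dmCitra, 237 bp in ZR_DMSO replicate 2 with none in replicate 1, 783 and 1113 bp in Citraconate_50K, and 749 and 1254 bp in DMSO_50K. Both ZR peaks were wider than both EV peaks, while the Citraconate_50K and DMSO_50K widths overlapped. The rank percentile, the share of a library's own peaks that rank below it by q-value, was 71.5 and 72.1 in ZR and 78.9 and 76.7 in EV, so the wider ZR peaks did not rank higher. The highest percentile, 94.8, was in ZR_GSK343 replicate 2, against 69.1 in replicate 1 of that group.

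The merged region at the start site of Dlx2, the convergent partner of Dlx1, had a peak in 9 lists (chr2:71545634-71547194). Its width was 604 and 368 bp in ZR and 871 and 778 bp in EV, at percentiles of 14 and 20.0 in ZR and 41.3 and 41.2 in EV. ZR was below EV in both measures in every library. In ZR_GSK343 the peaks spanned 192 and 1270 bp, in ZR_dmCitra 339 bp in replicate 2 with none in replicate 1, in ZR_DMSO there were none, in Citraconate_50K none, and in DMSO_50K 431 and 212 bp. The 192 bp peak, of ZR_GSK343 replicate 1, lay 0.7 kb inside the gene and did not reach the start site.

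Dlx5 and Dlx6, the second homeodomain pair, had few peaks, and no region of theirs appeared in more than 4 lists. The region 2.7 kb beyond the high-coordinate end of Dlx5 (chr6:6884793-6885394) had no peak in ZR, measured 530 and 476 bp in EV and 171 and 465 bp in DMSO_50K, and was absent from the other groups. It ranked low in DMSO_50K, at percentiles of 3.06 and 2.07, and higher in EV, at 20.6 and 40.1. The region 33.0 kb beyond Dlx5 (chr6:6915102-6915769) was 145 bp in ZR replicate 2 and absent in replicate 1, against 483 and 668 bp in EV, with no peak elsewhere. The other 6 regions of the locus were each in a single list, 2 of them in EV replicate 2 and 4 in ZR_GSK343 replicate 2, the library with 57634 peaks.

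**Figure D2:**
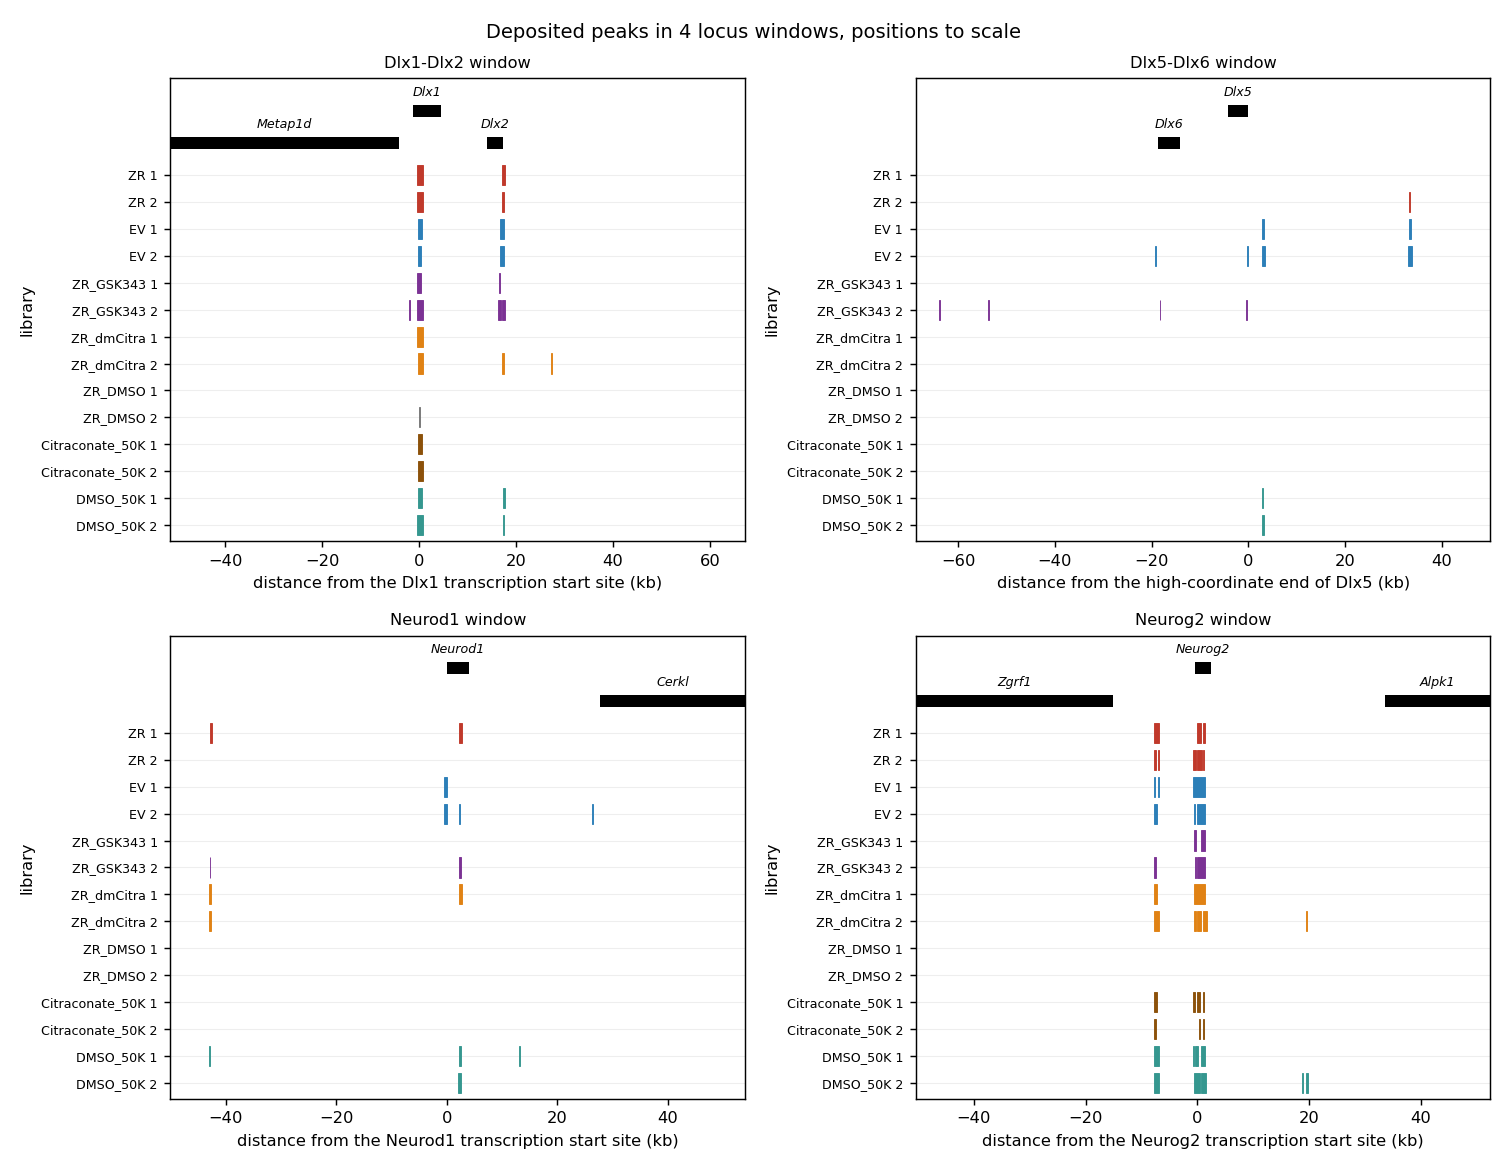
Deposited peaks in the Dlx1-Dlx2, Dlx5-Dlx6, Neurod1 and Neurog2 windows, with positions to scale as distance in kb from the Dlx1, Neurod1 or Neurog2 start site or from the high-coordinate end of Dlx5. Rows are the 14 libraries, coloured bars are peaks and black bars are genes. The Dlx1 start site is filled in 13 lists, and the Dlx5-Dlx6 window holds peaks mainly in EV, DMSO_50K and ZR_GSK343 replicate 2.

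Neurog2, the proneural factor of cortical progenitors, had the widest region of all 35 at its start site (chr3:127632448-127634806, 2359 bp), with peaks in 12 lists. The summed width was 1017 and 1477 bp in ZR and 2131 and 1744 bp in EV, 880 and 1531 bp in ZR_GSK343, 1967 and 1873 bp in ZR_dmCitra, none in ZR_DMSO, 1086 and 374 bp in Citraconate_50K, and 1196 and 1923 bp in DMSO_50K. Both ZR libraries were below both EV libraries, at percentiles of 51.0 and 45.7 in ZR and 69.7 and 75.5 in EV. A second region 7.3 kb upstream (chr3:127625332-127626361) was in 11 lists and showed the other order, at percentiles of 62.2 and 74.2 in ZR and 49.8 and 40.7 in EV. It reached 77.4 and 80.9 in ZR_dmCitra and 81.2 in ZR_GSK343 replicate 2, with no peak in ZR_GSK343 replicate 1. In Citraconate_50K it was at 75.5 and 47.6, and in DMSO_50K at 56.1 and 52.1.

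Neurod1, a differentiation factor downstream of Neurog2 and Eomes, had no start site peak in ZR and had one in both EV libraries (chr2:79456600-79457200). The EV peaks were 454 and 601 bp wide, at percentiles of 74.9 and 69.3 and at the authors' fold enrichments of 15.8 and 13.8, and the other 12 lists had none. That included DMSO_50K, labelled empty vector. Peaks elsewhere in the locus were scattered: the region 2.4 kb inside the gene was in 6 lists, and the region 42.8 kb upstream was in 5 (ZR replicate 1, ZR_GSK343 replicate 2, both ZR_dmCitra libraries and DMSO_50K replicate 1) and in no EV list.

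The Eomes locus, for a T-box factor of intermediate progenitors, was the densest, with 11 regions. Its start site (chr9:118477527-118479256) had summed widths of 1558 and 1470 bp in ZR and 225 and 493 bp in EV. In ZR_GSK343 it was 651 bp in replicate 2 with none in replicate 1, in ZR_dmCitra 1449 and 1252 bp, in ZR_DMSO absent, in Citraconate_50K 1244 and 764 bp and in DMSO_50K 1223 and 1542 bp. EV was below every other library that had the peak, and its percentiles were 11.3 and 34.3, against 55.2 and 53.6 in ZR.

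Distances here run from the start site, while the window runs from the gene body, so it reaches past 50 kb downstream. Downstream, 3 regions inside the next gene, Golga4, separated the groups. The region 34.8 kb from the start site (chr9:118512574-118513490) had a peak in 9 lists. Its width was 540 and 643 bp in ZR, absent in EV, 163 bp in ZR_GSK343 replicate 2 and absent in replicate 1, 741 and 735 bp in ZR_dmCitra, absent in ZR_DMSO, 635 and 691 bp in Citraconate_50K, and 637 and 917 bp in DMSO_50K. The region at 55.0 kb (chr9:118532498-118533827) measured 947 and 878 bp in ZR, 942 and 869 bp in ZR_dmCitra, 766 and 839 bp in Citraconate_50K, and 1316 and 1325 bp in DMSO_50K, with none in EV, ZR_GSK343 or ZR_DMSO. In DMSO_50K it ranked at percentiles of 94.0 and 92.7 with fold enrichments of 38.5 and 39.3, the highest folds at the 6 loci. The region at 52.0 kb was in the same 8 lists. By these peaks DMSO_50K differed from EV although both carry the empty-vector label.

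Upstream of Eomes, a region at 29.7 kb (chr9:118448204-118448683) was 480 and 318 bp in ZR, with none in EV, and 372 and 406 bp in ZR_dmCitra, with none in the other groups. A region at 24.5 kb upstream was in EV alone, at 267 and 266 bp, and a region 23.1 kb downstream was in DMSO_50K alone. The region at 28.4 kb, at the end of Golga4 that lies nearer Eomes, was in 12 lists, including EV and ZR_GSK343. Tbr1, the deep-layer T-box factor, had no start site peak in any list. It had 3 narrow peaks, all in ZR_GSK343: 172 bp in replicate 1 and 260 and 211 bp in replicate 2.

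**Figure D3:**
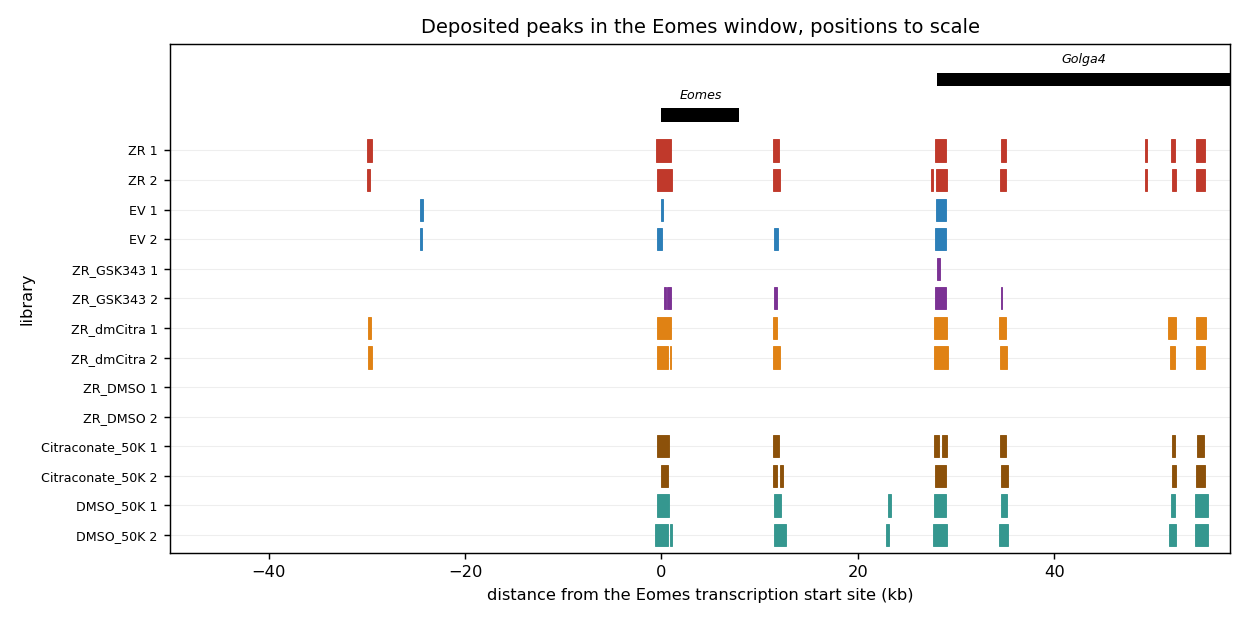
Deposited peaks in the Eomes window, with positions to scale as distance in kb from the Eomes start site, with 14 libraries as rows and black bars for the Eomes and Golga4 genes. The peaks near 34.8, 52.0 and 55.0 kb are present in ZR, ZR_dmCitra, Citraconate_50K and DMSO_50K and absent in EV and ZR_DMSO.

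Fusion cells were compared with empty-vector cells, ZR against EV, on the best 34989 peaks of each list, the length of the shortest of the 4. Vehicle labels differed as given above, and the cause of any difference was not tested. Regions with a peak in both ZR and neither EV library are called gained, and the reverse are called lost. Of 19 regions at these loci, 5 were gained, 4 were lost and 5 were in all 4 lists. Over all 60363 regions, 22.0% were gained and 19.4% were lost, beside 26.3% and 21.1% of the 19. All 5 gained regions lay in the Eomes window, at 29.7 kb upstream and 34.8, 49.4, 52.0 and 55.0 kb downstream. The 4 lost regions were the Dlx2 and Neurod1 start sites and the 2 regions beyond Dlx5. In both deposited DMSO_50K lists, labelled empty vector, the gained regions at 34.8, 52.0 and 55.0 kb had peaks. Those at 29.7 and 49.4 kb had none. Of the lost regions, the Dlx2 start site and the nearer region beyond Dlx5 had peaks there, and the other 2 had none. The Dlx2 peak and, in replicate 2, the region 33.0 kb beyond Dlx5 were in the deposited ZR lists at lower rank, so those calls rest on equal list length. A list of peaks cannot tell fewer cells with an open site from a less open site in each cell.

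In covered bases, the Eomes window held 5807 and 5763 bp in ZR and 1494 and 2017 bp in EV, a difference of 4029.5 bp. The groups did not overlap, and 1.15% of gene windows had a larger increase. Two-sided exact permutation over 2 against 2 libraries gave p = 0.33, the smallest it allows. The Dlx5-Dlx6 window went the other way, with 0 and 0 bp in ZR and 1013 and 1289 bp in EV. The Dlx1-Dlx2 window held 1102 and 1179 bp in ZR and 1588 and 1328 bp in EV, a difference of -317.5 bp that became 168.5 bp with lists as deposited. The Neurog2 window held 1938 and 2038 bp in ZR and 2541 and 2274 bp in EV, and Neurod1 overlapped. Among the 7 genes whose window held a peak, 1 gene (Eomes) had more bases in both ZR libraries and 5 had fewer, against 38.5% and 31.8% of 18516 gene windows. Genes in a shared window share their peaks, so the 5 are not independent. With windows of 20 kb no region was gained. On the best 12390 peaks, a length chosen after seeing the data, 0 regions were gained and 2 lost. Those 2 were the Dlx1 and Neurog2 start sites, which were in all 4 lists at 34989 peaks. None of the 4 regions lost at 34989 peaks was lost at 12390. The Eomes window then held 1487 and 0 bp in ZR and 0 and 0 bp in EV, with groups that overlapped.

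**Figure D4:**
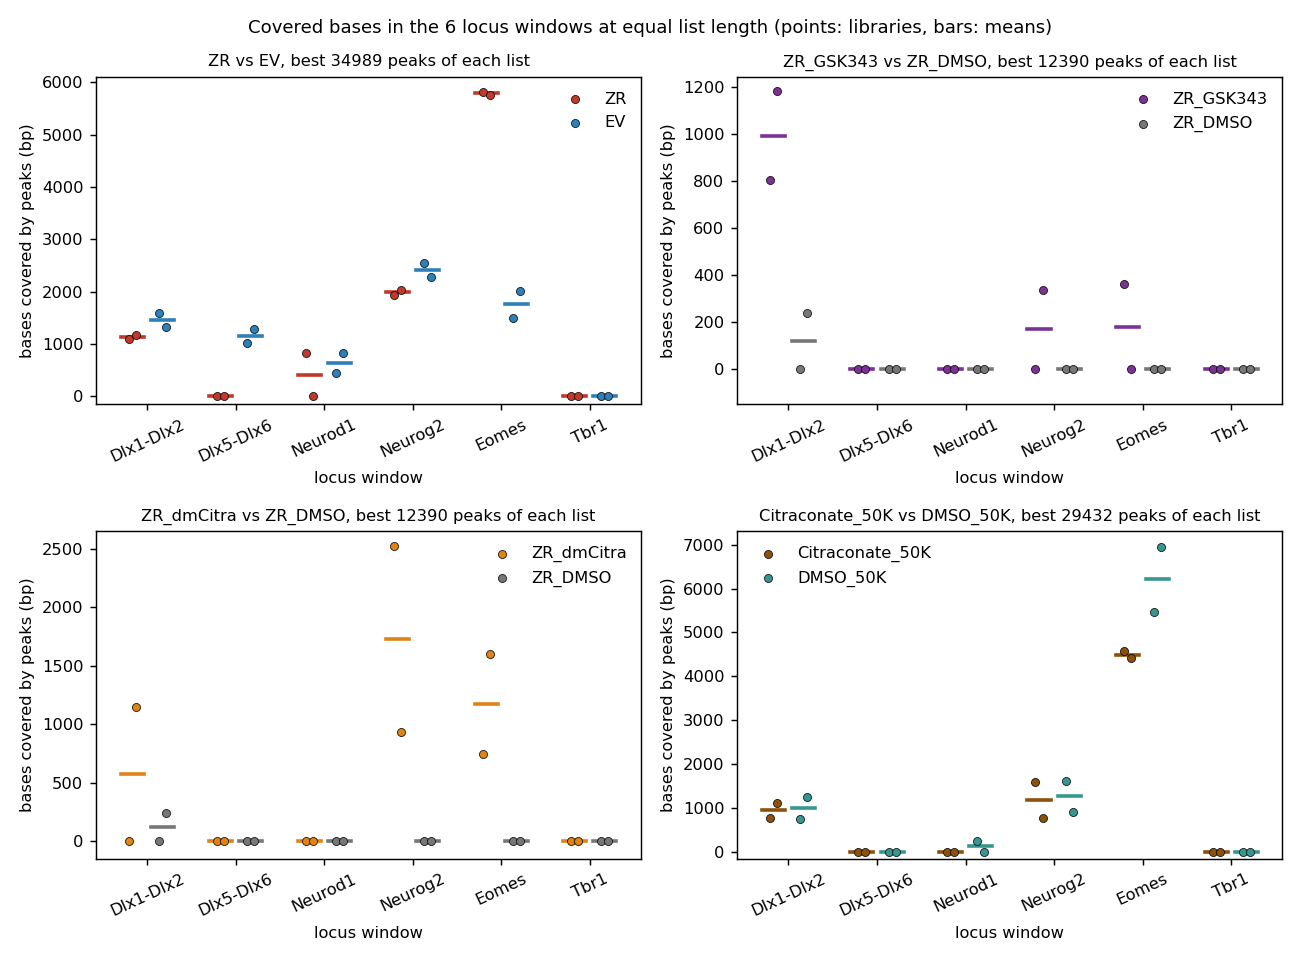
Bases covered by peaks (bp) in each locus window for the 4 comparisons, at equal list length. Points are libraries and bars are means of 2. In the ZR against EV panel the Eomes points for ZR are at 5807 and 5763 bp and those for EV at 1494 and 2017 bp.

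GSK343, an inhibitor of the enzyme that deposits H3K27me3, was compared with ZR_DMSO on the best 12390 peaks. Of 3 regions at these loci, 0 were gained and 0 were lost, beside 10.4% and 7.69% of all 21521 regions, and the best-peak lists of ZR_DMSO held 0 and 1 peaks near the 8 genes. The Dlx1-Dlx2 window held 804 and 1184 bp in ZR_GSK343 and 0 and 237 bp in ZR_DMSO, and it was the only locus whose groups did not overlap. That gave 2 of 4 gene windows with more bases, and 0 with fewer, beside 69.5% and 2.41% of 16536 gene windows, at a list length where the median peak was 466 and 843 bp wide in ZR_GSK343 and 226 and 254 bp in ZR_DMSO. Against ZR, on 19239 peaks, 1 region was gained (the Neurog2 start site) and 3 were lost of 14, beside 7.55% and 13.7%. The 3 lost regions were all in the Eomes window, at 29.7 kb upstream and at 34.8 and 55.0 kb downstream. The Neurog2 peaks were also in both deposited ZR lists at lower rank, and the 34.8 kb peak was in the deposited list of ZR_GSK343 replicate 2, so these 2 calls rest on equal list length. The 3 lost regions are among those gained in ZR against EV, a comparison that shares the ZR libraries. The window held 360 and 1408 bp in ZR_GSK343 and 3516 and 3701 bp in ZR (exact permutation p = 0.33), the only window of 6 whose groups did not overlap, beside 11.8% of gene windows with more bases and 45.3% with fewer. Over ZR_DMSO, 4 regions were gained with lists as deposited, and 1 without either ZR_GSK343 library or without ZR_DMSO replicate 2. The vehicle label of ZR was PBS, and the GSK343 libraries held 19513 and 57634 peaks.

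For citraconate in fusion cells, ZR_dmCitra was compared with ZR_DMSO on the best 12390 peaks. Here 2 of 5 regions were gained and 0 lost, beside 12.0% and 7.44% of 19790 regions. They were the region 7.3 kb upstream of Neurog2 and the one 34.8 kb downstream of Eomes. Neurog2 held 2523 and 933 bp in ZR_dmCitra and 0 and 0 bp in ZR_DMSO, and Eomes 741 and 1604 bp against 0 and 0 bp. That made 2 of 4 gene windows with more bases and 0 with fewer, beside 79.9% and 3.51% of 15228. At this list length the median peak was 978 and 914 bp wide in ZR_dmCitra and 226 and 254 bp in ZR_DMSO. The ZR_DMSO libraries are the same as in the GSK343 comparison. With lists as deposited 10 regions were gained, and without ZR_dmCitra replicate 1 the count of windows that differed was 4. Against ZR, on 44033 peaks, 0 of 17 regions were gained, 1 was lost, and 10 were in all 4 lists, beside 4.82% gained and 5.32% lost. The Eomes window held 6166 and 5943 bp in ZR_dmCitra and 5807 and 5763 bp in ZR, and the Neurog2 window 2523 and 2962 bp against 1938 and 2038 bp. These 2 of 7 genes had more bases and 0 had fewer, beside 31.7% and 20.3% of 18615 gene windows.

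In the second series, Citraconate_50K against DMSO_50K on 29432 peaks, 1 of 12 regions was gained, 0 lost and 8 were in all 4 lists, beside 9.05% gained and 16.8% lost of 45142. The gained region was at the Neurog2 start site (chr3:127633171-127633603), where the deposited DMSO_50K lists also had peaks of lower rank. The Eomes window held 4567 and 4425 bp in Citraconate_50K and 5464 and 6951 bp in DMSO_50K, a difference of -1711.5 bp with groups that did not overlap (exact permutation p = 0.33). It was -968 bp without DMSO_50K replicate 2. On the best 12390 peaks the window held 1401 and 2615 bp in Citraconate_50K and 1953 and 2242 bp in DMSO_50K, which overlapped. No gene window had more bases and 1 (Eomes) had fewer of 5, beside 17.5% and 46.6% of 18105. Without DMSO_50K replicate 2 the count of windows that differed was 5, without DMSO_50K replicate 1 it was 3, and without Citraconate_50K replicate 1 it was 2.

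Other genes of the same lineages were read by the same gene-end peaks. In ZR against EV the lists had no gained gene: of 15 genes of the GABAergic lineage 5 had a peak, with Gsx1 among those lost, and of 14 dorsal glutamatergic genes 8 had a peak, with Fezf2 and Neurog1 lost. Neurog1 is a proneural factor, Gsx1 is a ventral progenitor homeodomain factor and Fezf2 specifies subcerebral projection neurons. Of 14 neuronal differentiation genes 5 had a peak, with Scrt1, a zinc finger repressor, lost, although the deposited list of ZR replicate 1 had a Scrt1 peak. Over 11925 genes with such a peak 3.10% were gained and 6.90% lost. In ZR_GSK343 against ZR_DMSO, Emx2 and Sox11 were gained (20.2% of all genes gained, 0.383% lost), in ZR_dmCitra Sox11 (12.0% gained, 1.37% lost), and in Citraconate_50K Lhx2 and Tubb3 (7.50% gained, 1.48% lost). The deposited lists also held a peak at Sox11 in ZR_DMSO replicate 2 and at Lhx2 and Tubb3 in both DMSO_50K libraries, so those calls rest on equal list length. In ZR_GSK343 against ZR, the interneuron genes Gad1 and Lhx6 and the progenitor factor Lhx2 counted as gained (9.74% gained, 1.42% lost) at 19239 peaks, and all 3 had a peak in both deposited ZR lists. In ZR_dmCitra against ZR, 0 listed genes were gained or lost (1.07% gained, 1.10% lost).

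By the same gene-end rule, Neurod1 and Dlx2 were lost in ZR against EV, Neurog2 was gained in Citraconate_50K, and Dlx1 was gained in ZR_GSK343 against ZR_DMSO. Dlx2 and Neurog2 counted as gained in ZR_GSK343 against ZR at 19239 peaks, while both deposited ZR lists had peaks there, and the 2 ZR_GSK343 libraries had their Dlx2 peaks in different regions. The lost Dlx2 and the gained Neurog2 peaks likewise were in the deposited lists of ZR and of DMSO_50K. Dlx1 also counted as gained in ZR against EV, while its start site had a peak in all 4 ZR and EV lists. The annotated Dlx1 gene starts at 71528113, upstream of the start site at 71529445. The ZR peaks began at 71529059 and 71529085 and so reached the 1 kb limit, and the EV peaks began at 71529293 and 71529257 and did not. The Dlx1 gain in ZR_GSK343 against ZR_DMSO rests on the same limit. The ZR_GSK343 peaks began at 71529034 and 71529020. ZR_DMSO replicate 2 had a start site peak among its best 12390, but it began at 71529477 and did not reach the limit. The genes whose covered bases, as a share of all covered bases in a library, followed each gene most closely over the 14 libraries were Ppdpf for Dlx1 and Dlx2 (Pearson r = 0.954), Gm36722 for Dlx5 (0.984), Gm4131 for Dlx6 (0.986), Tmem100 for Neurod1 (0.894), Gramd1a for Neurog2 (0.928) and Ldhd for Eomes (0.957). They are the closest of all gene windows that do not overlap the gene's own, and are given as a description. Tbr1, with peaks in 2 lists, was left out.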

How the data were processed

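Each ATAC-seq library came from 50000 cells and was read as 50 nt pairs, per the labels' protocols. Alignment was to mm10, and the submitters' processing notes name BWA, SAMtools and Picard, with no version. Each deposited list gives, per library, peak positions, a score, a fold enrichment (a ratio) and −log10 p-values and q-values, the authors' own values, used here to rank and describe peaks. Peak caller settings: not given in the sources used here. The same holds for any Tn5 shift. With no counts of reads in the files, depth is unknown and no counting interval was possible.

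Peaks on chromosomes 1 to 19, X and Y were used. Lists compared with each other were shortened to the shortest of the 4 by −log10 q, overlapping peaks (at least 1 bp) were merged, and covered bases were summed per window. Two-sided exact permutation tests used 2 libraries per group. Likeness between genes was taken for genes in at least 6 lists. Member genes and lists were chosen with earlier results of these data known. Regions named were up to 3 gained and 3 lost per locus by the poorer rank and the widest region; others were named after seeing values. The alternatives tried were the deposited lists at full length, a −log10 q minimum of 5, a peak covering 50% of a region, windows of 20 kb, ZR in place of ZR_DMSO, the replicate block and leaving out each library. The length of the shortest of all 14 lists was added after seeing the data. Some results of the lineage lists are not reported here. Scripts (Python 3.11.15, numpy 2.4.6, pandas 2.3.3) were tested on simulated lists.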

Additional observations from a re-analysis of the deposited data

Results flagged for a closer look

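Covered bases in the Eomes window differed by 1172.5 bp between ZR_dmCitra and ZR_DMSO, compared at 12390 peaks, and by -1711.5 bp between Citraconate_50K and DMSO_50K, compared at 29432 peaks. The difference between these differences was 2884 bp, with groups that did not overlap in either pair (two-sided exact permutation p = 0.0556, the smallest the design allows). Of the 6 loci, Eomes was flagged because the groups were apart in both pairs, in opposite directions. That rule alone sets this p at its smallest value, so the p adds no support. At 12390 peaks in both pairs, a length chosen after seeing the data, the second difference was -89.5 bp with overlapping groups, and the difference between the differences was 1262 bp (exact permutation p = 0.17). The separation of Citraconate_50K from DMSO_50K thus depended on list length. The deposited ZR_DMSO lists have no peak in the Eomes window. Treatment is confounded with the line in the second pair, and their parts cannot be told apart.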

How the results depend on the processing

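Of the counts of regions and windows, 79 values under the alternatives stayed within 1.5 times the main count and 33 did not. Of 216 covered-base differences per locus under the alternatives, 186 kept their sign or stayed at 0, 9 went from 0 to a difference and 9 from a difference to 0. The 186 include many values at 0 from windows with no peak in the main comparison, which had no sign to keep. Such windows were Tbr1 in all 4 comparisons, Dlx5-Dlx6 in all but ZR against EV, and Neurod1 in those with ZR_DMSO. The remaining 12 of the 216 changed sign. Those 12 were, for ZR against EV, 168.5 bp at Dlx1-Dlx2 as deposited and 192 bp at Neurod1 without ZR replicate 2 (lowest -641 bp with 1 library left out); for ZR_GSK343, -2724.5 bp at Eomes against ZR; for ZR_dmCitra at Dlx1-Dlx2, -197.5 bp against ZR and -118.5 bp without ZR_dmCitra replicate 2 (highest 1031.5 bp); and for Citraconate_50K, at Dlx1-Dlx2 948 bp on 12390 peaks, 111.5 bp without Citraconate_50K replicate 1 and 199 bp without DMSO_50K replicate 2 (lowest -306 bp), and at Neurog2 374 bp with −log10 q of at least 5, 259 bp on 12390 peaks, 335.5 bp without Citraconate_50K replicate 2 and 268.5 bp without DMSO_50K replicate 1 (lowest -503.5 bp). For ZR against EV, gained regions were 0 with windows of 20 kb, and on 12390 peaks gained regions were 0, lost regions 2 and windows whose groups did not overlap 3. The 2 lost regions were none of the 4 lost in the main comparison. For ZR_GSK343, gained regions were 4 as deposited, 1 where a peak had to cover 50% of a region and 1 against ZR, lost regions were 3 against ZR, and windows whose groups did not overlap numbered 5 as deposited and 1 against ZR. For ZR_dmCitra, gained regions were 10 as deposited, 1 with −log10 q of at least 5, 1 at 20 kb and 0 against ZR, lost regions were 1 against ZR, and windows were 5 as deposited, 1 with −log10 q of at least 5 and 1 at 20 kb. For Citraconate_50K, gained regions were 0 and lost regions 4 as deposited, lost regions were 1 at 50% cover, and gene windows were 7 as deposited and 2 on 12390 peaks. The cause of these shifts was not tested. With 1 library left out at the same list length, the call rule is looser. Counts can then hardly fall, so the ranges that follow do not show stability. Leaving out each library gave, for ZR against EV, 5 to 6 gained, 4 to 5 lost and 6 to 7 windows; for ZR_GSK343 0 to 1, 0 to 0 and 2 to 3; for ZR_dmCitra 2 to 3, 0 to 0 and 2 to 4; and for Citraconate_50K 1 to 2, 0 to 1 and 1 to 5. Replicate numbers are only shared. Over gene windows, replicate 1 minus replicate 2 in the tested group was set against the same difference in its control. These differences correlated at -0.0344, 0.0776, -0.0339 and -0.133 in the 4 comparisons, and at -0.0569 and 0.12 for ZR_GSK343 and ZR_dmCitra against ZR. The replicate block pairs same-numbered libraries and returns the main counts and differences by construction, such as 5 gained for ZR. It is thus no check of them. Its values are included in the 79 and the 186 above, so both of those counts are higher than real alternatives alone would give. Its smallest p is 0.5. With 2 libraries per group and lists of unequal length, ranks and widths carry the result and depth is unknown.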
